A study of Mus musculus with 4 samples.

Results

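The genes described here encode enzymes that add methyl groups to histone lysines (writers), enzymes that remove them (erasers), and the core subunits *Eed* and *Suz12* of a writer complex. They were taken by symbol from a list of 46 genes, 29 writers and 17 erasers, and grouped by the lysine they act on. All 46 were among the 17559 genes listed in any of the 4 libraries, and all 46 passed the filter on low counts that left 12943 genes for testing. RNA-seq was performed on CD8+ T cells of C57BL/6 mice with the OT-I transgene, which encodes a T cell receptor for an ovalbumin peptide. The tissue is labelled LN, and the cells had been purified by magnetic depletion of other cells to above 95%. Every culture was stimulated for 2 d with 10 ng/ml IL-2 on plates coated with 2 antibodies, anti-CD28 at 2 µg/ml and anti-CD3 at 1 µg/ml, and then kept for 2 d in IL-2 alone. The 2 control libraries came from cells given the control treatment, and the 2 NaBu libraries from cells given 1 mM NaBu for 12 h. NaBu commonly stands for sodium butyrate, an inhibitor of histone deacetylases. The labels give neither the animals' age and sex nor whether the replicates were separate cultures, so the p-values rest on a spread between libraries that may be only technical.

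The effect of a methyl mark depends on the lysine that carries it. Methylation of H3K4 and H3K36 is found at active promoters and in transcribed gene bodies, whereas methylation of H3K9, H3K27 and H4K20 is associated with silent or compacted chromatin. Most writers carry a SET domain and take the methyl group from S-adenosylmethionine. Most erasers are JmjC oxygenases that need iron and 2-oxoglutarate, and the LSD1 type uses flavin instead. In CD8+ T cells, the H3K27 writer EZH2 and the H3K9 writer SUV39H1 are known for silencing genes of alternative fates during effector and memory differentiation.

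Library totals lay between 19857701 and 20548571 expected counts, and counts of a single member ranged from 53.9 for *Setdb2* in NaBu 2 to 6932 for *Whsc1* in control 2. The T cell markers *Cd3e*, *Cd8a* and *Cd8b1* had an FPKM (fragments scaled to transcript length and library depth) of at least 93.9 in every library, and of 7 tested T cell markers 5 were called lower and 1 higher. *Cd4* was low in each library but was called higher, from 0.02 and 0.03 to 0.66 and 0.65 FPKM. The summed FPKM of 9 myeloid and dendritic markers found was between 15.1 and 16.6 in the controls and between 38.5 and 40.5 in NaBu, with 4 of 5 tested markers called higher and 1 lower. *Cd68* made up most of that sum (11.4 and 9.59 against 28.4 and 27.1 FPKM), *Itgam* went from 0.45 in both controls to 4.83 and 3.79, and the macrophage marker *Adgre1* did not exceed 0.02. Of other markers, *Hba-a1* of red cells (1.0 and 0.81 against 6.59 and 7.24 FPKM) and the stromal *Pdgfrb* (0.05 and 0.1 against 1.51 and 1.2) and *Col1a1* (0.04 and 0.11 against 0.54 and 0.54) were called higher. The red cell genes *Hbb-bs* (0.16 and 0.48 against 0.0 and 0.0 FPKM) and *Hbb-bt* (at most 0.16) were too low to be tested. The stromal *Col1a2* was not called, and *Pdgfra* did not exceed 0.01 FPKM. The NK marker *Klrb1c* (10.5 and 9.24 against 4.94 and 5.57 FPKM), the B cell marker *Cd79b* (5.45 and 3.86 against 2.43 and 1.88) and the endothelial *Pecam1* (20.8 and 21.9 against 17.0 and 16.3) were called lower. The other tested B cell marker, *Cd22*, was called higher, from 0.35 and 0.25 to 0.68 and 0.59 FPKM. No entry was found for *Lyz2* and *Csf1r* of the myeloid list, so they were not analysed here. Of 10 related gene lists, the cell division genes had the largest median change (log2 fold change -2.11): all 28 were called lower, and their summed FPKM was 2714 and 2841 in the controls against 988 and 1038 in NaBu. The part of these lists in the results below was not tested. In bulk RNA, fewer cells expressing a gene and less RNA per cell cannot be told apart.

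Writers mostly fell after NaBu and erasers were divided. Of the 29 writers, 20 fell, 4 rose and 5 were not called; of the 17 erasers, 9 fell, 7 rose and 1 was not called. Calls are an adjusted p of at most 0.05 by edgeR's quasi-likelihood test with Benjamini-Hochberg adjustment over all tested genes. Of all tested genes, 68.6% were called, 34.5% higher and 34.1% lower, so a call by itself is common in this comparison. The 46 genes had 29 lower and 11 higher calls. Among the 9445 tested genes within their range of mean FPKM (1.22 to 62.3), 70.0% were called, 32.0% higher and 38.0% lower. The median log2 fold change was -0.44 for writers and -0.16 for erasers, against 0.0047 for all tested genes. The difference between writers and erasers was not tested. The changes were mostly small: against a null of 1.5-fold (edgeR's glmTreat) 8 members were lower and 3 higher, 11 of 46, where 29.2% of all tested genes passed (17.1% higher, 12.1% lower). The count of higher members fell to 6 without NaBu 1 and to 5 without NaBu 2, in fits where the remaining NaBu library is assumed to vary like the controls. The control libraries differed more from each other than the NaBu libraries did (chi-square of the counts per degree of freedom 7.65 against 2.83). With library totals as the scale, which moved the median of all genes to 0.10, 7 erasers were higher and 6 lower.

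**Figure D1:**
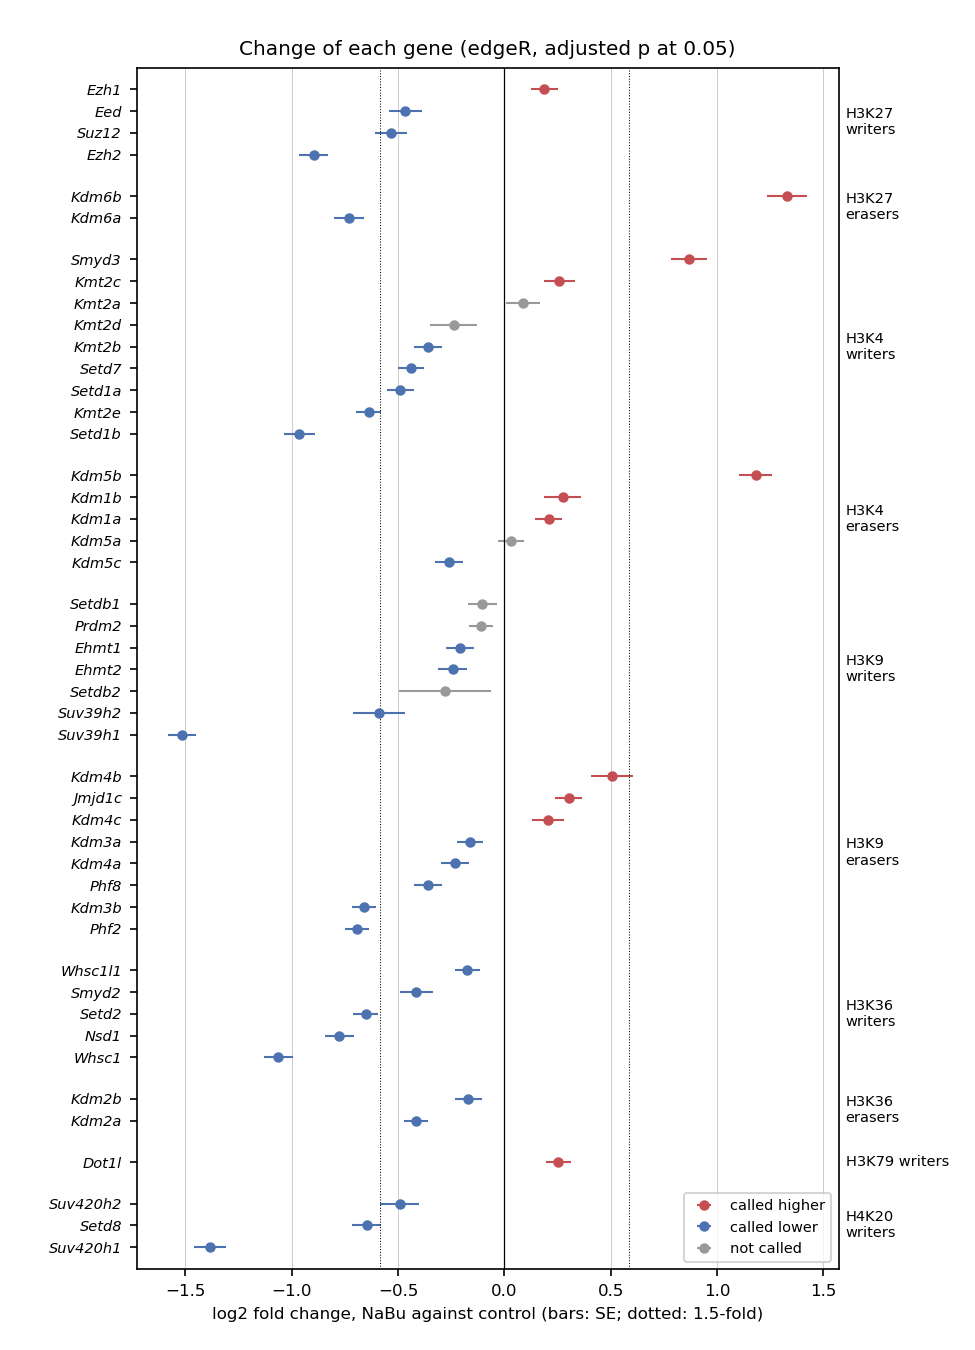
Log2 fold change of NaBu against control for each of the 46 genes, by residue and role; bars are the SE and dotted lines mark 1.5-fold. Blue points (29 genes) were called lower, red points (11 genes) higher and grey points (6 genes) were not called.

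In PRC2, the complex that methylates H3K27, *Ezh2*, *Suz12* and *Eed* fell, and the balance of its catalytic subunits moved toward *Ezh1*. *Ezh2*, the catalytic subunit of dividing cells (gene 14056, mm10 chromosome 6, 47530274 to 47595270), had 62.4 and 69.3 FPKM in control libraries and 38.1 and 37.5 in NaBu libraries. Both NaBu libraries lay far below both controls (log2 fold change -0.90 ± 0.07, SE; edgeR adjusted p = 8.89e-07). *Ezh1*, the paralog typical of resting cells, had 18.7 and 17.2 FPKM in control libraries and 21.7 and 22.02 in NaBu libraries. The groups did not overlap and *Ezh1* was called higher (log2 fold change 0.19 ± 0.06, SE; edgeR adjusted p = 0.0238), but the call was lost without control 2, without either NaBu library, without the filter and in DESeq2. *Suz12* and *Eed*, the subunits that hold the complex together and read its mark, fell 1.45-fold and 1.38-fold. *Suz12* had 44.4 and 51.0 FPKM in control libraries and 36.1 and 34.4 in NaBu libraries, and *Eed* went from 28.8 ± 1.22 to 22.3 ± 1.75 FPKM (SD, n = 2).

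The H3K27 erasers moved in opposite directions. *Kdm6b*, encoding the inducible demethylase JMJD3 (gene 216850, chromosome 11, 69398508 to 69420367), had 9.37 and 7.39 FPKM in control libraries and 22.2 and 22.8 in NaBu libraries. Its 2.51-fold rise (log2 fold change 1.33 ± 0.09, SE; edgeR adjusted p = 5.3e-07) was the largest increase among the 46 genes. *Kdm6a*, encoding the X-linked demethylase UTX (chromosome X, 18160862 to 18279936), had 9.29 and 9.51 FPKM in control libraries and 6.11 and 6.01 in NaBu libraries. It fell 1.66-fold, and exceeded the 1.5-fold null (glmTreat adjusted p = 0.0317). The erasers were thus at like levels in the controls, where *Kdm6a* made up 49.8% and 56.3% of their summed FPKM, and unequal after NaBu, where it made up 21.6% and 20.9%.

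Sequence just upstream is shown for 3 writers, picked among the members called lower for matches to E2F or CCAAT elements. A link between these matches and the falls was not tested. The 250 bases before each listed gene start were searched on both strands for E2F octamers (TTTCCCGC, TTTGGCGC, TTTCGCGC or TTTGCCGC) and for the CCAAT box (CCAAT), using RefSeq starts on GRCm38.p6, the assembly also called mm10. An E2F octamer and a CCAAT box can share bases at their ends. Windows were found for 33 of the 46 genes. The windows printed belong to members called lower, lie outside the gene's annotated span and hold an E2F octamer or at least 2 CCAAT boxes. They are given 5′ to 3′ on the gene's strand with the matches in capitals (ATTGG is CCAAT on the other strand).
Suz12, chr11:79992856-79993105, plus strand: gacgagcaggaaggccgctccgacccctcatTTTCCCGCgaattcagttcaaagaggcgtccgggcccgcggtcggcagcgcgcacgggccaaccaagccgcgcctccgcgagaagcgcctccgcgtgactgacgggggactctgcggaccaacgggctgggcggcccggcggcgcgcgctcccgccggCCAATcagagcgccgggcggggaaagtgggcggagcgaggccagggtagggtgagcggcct
Setd8, chr5:124439680-124439929, plus strand: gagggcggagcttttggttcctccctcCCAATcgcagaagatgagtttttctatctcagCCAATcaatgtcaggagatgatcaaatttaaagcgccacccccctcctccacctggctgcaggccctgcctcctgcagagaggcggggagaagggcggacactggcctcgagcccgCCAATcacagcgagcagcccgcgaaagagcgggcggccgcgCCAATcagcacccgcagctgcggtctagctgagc
Suv39h1, chrX:8074761-8075010, minus strand: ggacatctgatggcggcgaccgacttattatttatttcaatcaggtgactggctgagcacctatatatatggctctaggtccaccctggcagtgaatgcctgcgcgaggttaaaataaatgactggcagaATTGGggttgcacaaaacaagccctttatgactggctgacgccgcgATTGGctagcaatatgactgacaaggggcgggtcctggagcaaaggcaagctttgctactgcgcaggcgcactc
An E2F octamer was present before 3 of the 33 genes (9.09%), *Suz12*, *Suv420h2* and a second, internal start of *Suv39h1*, and before 4.04% of 10303 tested genes with a window. It was in 1.86% of all 32851 windows. A CCAAT box was present before 13 of the 33 genes (39.4%) and before 41.0% of the tested genes, so that share was near the background. The *Setdb2* window outside the gene also held 2 CCAAT boxes, and *Setdb2* was not called. CCAAT boxes were in 33.8% of all windows. *Setd8* held 4 CCAAT boxes in the window shown. The *Setd8* and *Suv39h1* windows shown held no E2F octamer. Another 3 motifs were searched in the same windows. The CHR element (TTTGAA) was before 12.1% of the members and 12.8% of the tested genes, the CRE (TGACGTCA) before 6.06% and 3.1%, and the AP-1 site (TGANTCA) before 9.09% and 5.39%. They were in 16.0%, 1.55% and 6.75% of all windows.

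Among the H3K4 writers, both SET1 enzymes fell and the MLL enzymes had smaller changes. *Setd1b* (gene 208043, chromosome 5, 123142040 to 123168630) and *Setd1a* encode the SET1 enzymes that trimethylate H3K4 at promoters. *Setd1b* had 11.2 and 10.2 FPKM in control libraries and 5.64 and 6.05 in NaBu libraries (log2 fold change -0.96 ± 0.07, SE; edgeR adjusted p = 8.57e-07). *Setd1a* had 22.3 and 22.2 FPKM in control libraries and 16.4 and 17.6 in NaBu libraries and fell 1.4-fold. For both genes the groups were apart. *Kmt2b* fell 1.28-fold, from 19.4 ± 1.58 to 16.2 ± 0.106 FPKM (SD, n = 2). *Kmt2c*, which with *Kmt2d* monomethylates H3K4 at enhancers, was called higher at 1.2-fold, a call lost without control 2, without NaBu 2 and in both fits without a filter. *Kmt2a* had 13.5 and 12.2 FPKM in control libraries and 13.5 and 15.7 in NaBu libraries and was not called (edgeR adjusted p = 0.357). *Kmt2d* had 15.8 and 13.3 FPKM in control libraries and 11.6 and 14.8 in NaBu libraries and was not called (edgeR adjusted p = 0.0798), but it was called lower without control 2, without NaBu 2 and with the GC trend removed (log2 fold change -0.36, -0.43 and -0.38). The *Kmt2a* and *Kmt2d* groups overlapped.

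The remaining H3K4 genes on the writer side split. *Smyd3*, a SET and MYND protein that also methylates H4 and signalling proteins (gene 69726, chromosome 1, 178951960 to 179518053), had 4.78 and 4.91 FPKM in control libraries and 9.07 and 9.82 in NaBu libraries. It rose 1.82-fold and was the only writer past the 1.5-fold null in the upward direction (glmTreat adjusted p = 0.00391). *Kmt2e*, whose product binds H3K4 methylation more than it deposits it, fell 1.56-fold, from 36.04 ± 0.622 to 24.8 ± 0.735 FPKM (SD, n = 2). *Setd7*, a monomethyltransferase with many targets outside histones, fell 1.36-fold.

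Of the 5 H3K4 erasers 3 rose, 1 fell and 1 was not called, a called share of 80.0% against 68.6% of all tested genes. *Kdm5b*, a JmjC demethylase of trimethylated H3K4 also called JARID1B (gene 75605, chromosome 1, 134560178 to 134632878), had 11.9 and 10.1 FPKM in control libraries and 27.2 and 26.2 in NaBu libraries. The NaBu libraries were 2.27-fold higher (log2 fold change 1.18 ± 0.08, SE; edgeR adjusted p = 3.48e-07). Its paralogs did not follow. *Kdm5c*, which is X-linked, fell 1.2-fold, a call lost without NaBu 1 and in the 3 limma fits, and *Kdm5a* had 9.99 and 10.8 FPKM in control libraries and 11.3 and 11.4 in NaBu libraries and was not called (edgeR adjusted p = 0.66). The sign of the *Kdm5a* change turned without control 1 (-0.026), and it was called higher with the trend on transcript GC content removed (0.12, edgeR adjusted p = 0.0296). *Kdm1a*, encoding LSD1, had 23.2 and 23.5 FPKM in control libraries and 29.6 and 28.1 in NaBu libraries and was called higher at 1.16-fold. *Kdm1b*, encoding LSD2, was called higher at 1.21-fold, from 3.69 and 3.66 to 4.89 and 4.62 FPKM. Both LSD calls were lost when either NaBu library was left out, that of *Kdm1b* also in DESeq2, and 9.19% of the exon bases of *Kdm1b* are shared with exons of *Dek* on the opposite strand.

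No H3K9 writer rose: 4 of 7 fell and 3 were not called, a called share of 57.1% against 68.6% of all tested genes. *Suv39h1*, which trimethylates H3K9 in heterochromatin (gene 20937, chromosome X, 8061171 to 8074760), had the largest change of the 46 genes. Its FPKM was 36.6 and 37.7 in the controls and 14.2 and 13.6 in NaBu (log2 fold change -1.52 ± 0.06, SE; edgeR adjusted p = 1.61e-08). *Suv39h2*, its low-expressed paralog, had 2.72 and 3.19 FPKM in control libraries and 2.07 and 2.12 in NaBu libraries and fell 1.5-fold. *Ehmt2* and *Ehmt1*, encoding the G9a and GLP enzymes that mono- and dimethylate H3K9 outside heterochromatin, were called lower at 1.18-fold and 1.16-fold. Their calls were lost when either NaBu library was left out, on library totals and in the 3 limma fits. That of *Ehmt1* was also lost in DESeq2 and with a stricter filter on low counts. The *Ehmt2* call held in 9 and the *Ehmt1* call in 7 of 16 alternative analyses. *Ehmt2* nonetheless kept the highest level of any H3K9 writer in each library, with 69.5 and 61.5 FPKM in control libraries and 59.3 and 59.0 in NaBu libraries. *Setdb1*, the enzyme that silences retroelements, had 16.3 and 15.7 FPKM in control libraries and 16.7 and 15.1 in NaBu libraries, with overlapping groups (edgeR adjusted p = 0.204). *Prdm2* and *Setdb2* were also not called, at log2 fold changes of -0.11 ± 0.06 and -0.28 ± 0.22 (SE), and *Prdm2* was called lower with the GC trend removed (edgeR adjusted p = 0.0481). *Setdb2* was the lowest of the 46 genes, with an FPKM of 0.9 to 1.39.

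The 8 H3K9 erasers were all called, 3 higher and 5 lower, with both directions in the KDM4 and KDM3 families. The share called over all tested genes was 68.6%, with 34.5% higher and 34.1% lower. In the KDM4 family, whose members also act on H3K36, *Kdm4b* had 17.7 and 13.6 FPKM in control libraries and 23.7 and 23.7 in NaBu libraries and rose 1.42-fold. *Kdm4c* rose 1.15-fold, a call lost without control 1, without either NaBu library, without the filter and in DESeq2. *Kdm4a* fell 1.17-fold, a call lost without NaBu 2, on library totals and in the 3 limma fits. In the KDM3 family, *Kdm3b* had 19.2 and 19.3 FPKM in control libraries and 13.1 and 12.9 in NaBu libraries and fell 1.58-fold. *Jmjd1c*, its relative of debated activity, rose 1.23-fold, from 9.3 and 10.1 to 12.8 and 12.8 FPKM. *Kdm3a*, the most abundant eraser, had 59.0 and 55.6 FPKM in control libraries and 55.6 and 53.9 in NaBu libraries. Its groups touched, and its lower call (log2 fold change -0.16, edgeR adjusted p = 0.0356) held in 3 of 16 alternative analyses. The plant homeodomain erasers both fell: *Phf2* had 24.4 and 24.3 FPKM in control libraries and 16.2 and 16.02 in NaBu libraries (glmTreat adjusted p = 0.0435), and *Phf8*, which also acts on H4K20, fell 1.28-fold.

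All 5 H3K36 writers were called lower, where 34.1% of all tested genes were called lower. *Whsc1*, now named *Nsd2*, the dimethyltransferase rearranged in multiple myeloma (gene 107823, chromosome 5, 33820676 to 33897966), had 43.9 and 47.5 FPKM in control libraries and 22.5 and 24.0 in NaBu libraries. It fell 2.09-fold (log2 fold change -1.06 ± 0.07, SE; edgeR adjusted p = 2.35e-07). *Nsd1*, the related enzyme, had 15.9 and 16.8 FPKM in control libraries and 9.75 and 10.7 in NaBu libraries and fell 1.71-fold. Their relative *Whsc1l1*, now *Nsd3*, had 55.2 and 58.2 FPKM in control libraries and 51.7 and 53.0 in NaBu libraries, and its 1.13-fold lower call was lost when either NaBu library was left out and on library totals. *Setd2*, the only enzyme known to trimethylate H3K36 in most cells, fell 1.57-fold, from 15.3 and 15.8 to 10.7 and 10.5 FPKM. *Smyd2*, which also methylates p53, fell 1.33-fold. The H3K36 erasers *Kdm2a* and *Kdm2b*, CpG-island binding JmjC proteins, were called lower at 1.33-fold and 1.13-fold, and the *Kdm2b* call was lost when either NaBu library was left out and on library totals.

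All 3 H4K20 writers were called lower and the H3K79 writer was called higher. The shares over all tested genes were 34.1% lower and 34.5% higher. *Suv420h1*, now *Kmt5b*, which di- and trimethylates H4K20 (gene 225888, chromosome 19, 3767362 to 3818303), had 10.8 and 11.1 FPKM in control libraries and 4.36 and 4.62 in NaBu libraries. Its 2.61-fold fall (log2 fold change -1.38 ± 0.07, SE; edgeR adjusted p = 8.11e-08) was exceeded among the falls only by that of *Suv39h1*. *Suv420h2*, its paralog, had 24.6 and 20.7 FPKM in control libraries and 16.9 and 17.6 in NaBu libraries and fell 1.41-fold. *Setd8*, now *Kmt5a*, the cell-cycle-regulated monomethyltransferase that supplies their substrate, had 49.8 and 55.4 FPKM in control libraries and 36.3 and 35.5 in NaBu libraries and fell 1.57-fold. *Dot1l*, the H3K79 enzyme without a SET domain, had 16.1 and 15.5 FPKM in control libraries and 20.2 and 20.02 in NaBu libraries. It was called higher at 1.19-fold, a call lost when either NaBu library was left out.

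**Figure D2:**
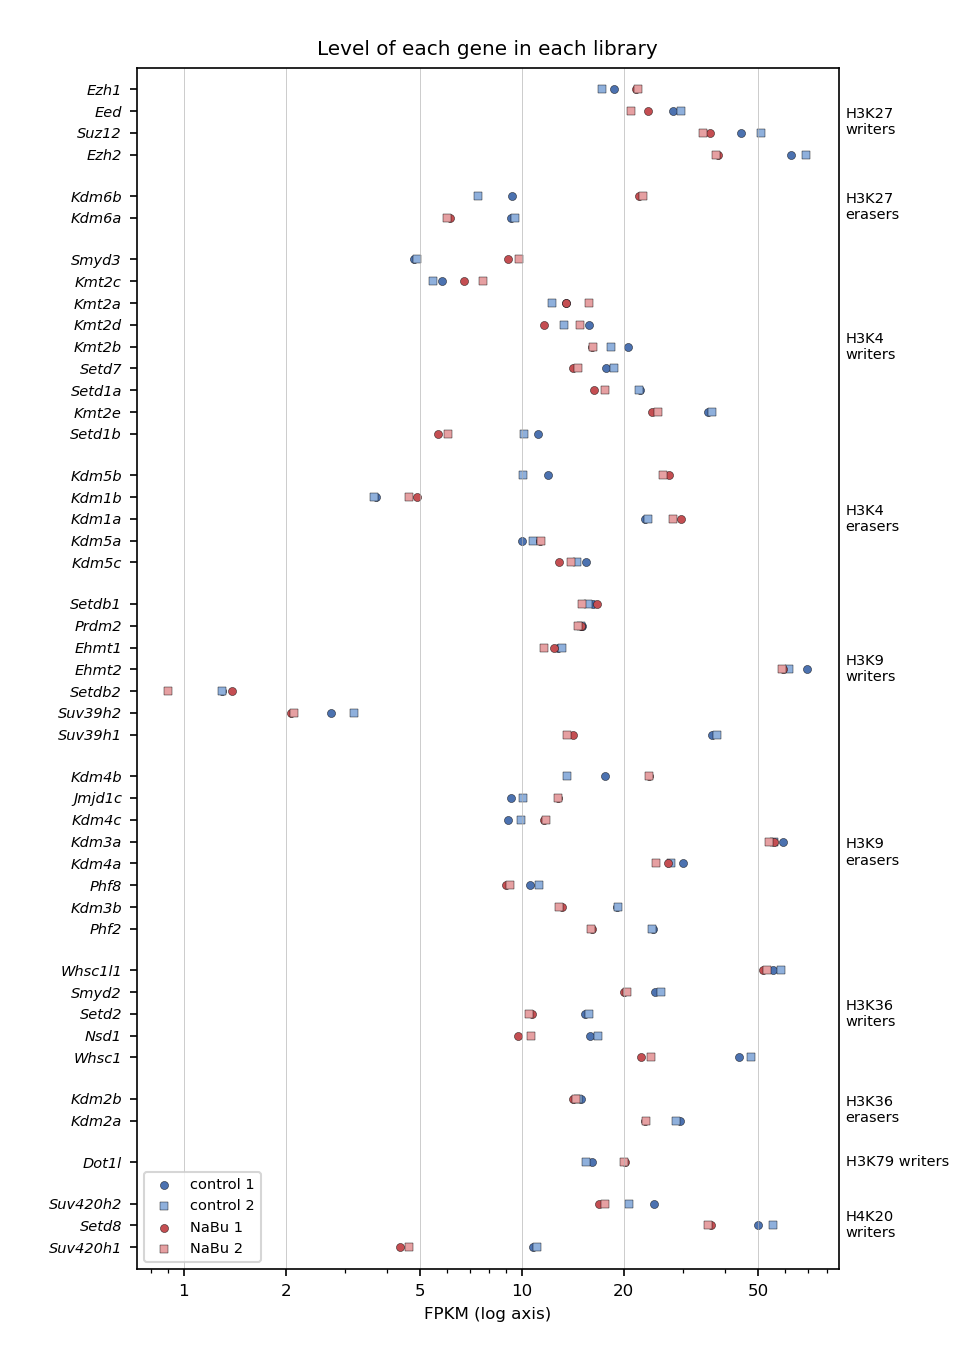
FPKM of each gene in each library on a log axis, by residue and role; blue marks are the 2 control and red marks the 2 NaBu libraries. *Suv39h1*, *Suv420h1*, *Whsc1*, *Kdm6b* and *Kdm5b* show wide gaps between the groups, whereas *Setdb1*, *Prdm2* and *Kmt2a* overlap.

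The groups did not overlap in FPKM for 40 of the 46 genes, 12 higher and 28 lower in NaBu. Of all tested genes 84.0% were without overlap, 48.0% higher and 35.9% lower. *Kdm5a* was without overlap and not called, and *Kdm3a* was called with a shared value at the edge.

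Levels were also summed per residue on the FPKM scale, as deposited. On that scale 48.0% of all tested genes were higher in NaBu without overlap and 35.9% lower. H3K27 writers summed to 153 and 167 FPKM in control libraries and 119 and 115 in NaBu libraries, while their erasers summed to 18.7 and 16.9 against 28.3 and 28.8. H3K4 writers summed to 147 and 142 against 118 and 128, and H3K4 erasers to 64.2 and 62.6 against 85.8 and 84.3. For both residues the erasers' sum was higher and the writers' sum lower in NaBu without overlap. The writer sums include the subunits *Eed* and *Suz12* for H3K27 and *Kmt2e* for H3K4. Catalytic H3K27 writers alone summed to 81.05 and 86.47 FPKM in control libraries and 59.79 and 59.56 in NaBu libraries. Without *Kmt2e* the H3K4 writers summed to 111.7 and 105.3 against 93.2 and 102.5, so their gap was narrow. Of the H3K27 erasers only *Kdm6b* rose, while *Kdm6a* fell. Among the H3K4 erasers, *Kdm5b* alone went from 11.9 and 10.1 to 27.2 and 26.2 FPKM. The H3K9 erasers differed less, at 179 and 172 in the controls and 169 and 165 in NaBu. H4K20 writers went from 85.2 and 87.2 to 57.6 and 57.7. These sums weight each gene by its FPKM and can follow a single gene, and they count RNA, not enzyme activity or methylation.

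**Figure D3:**
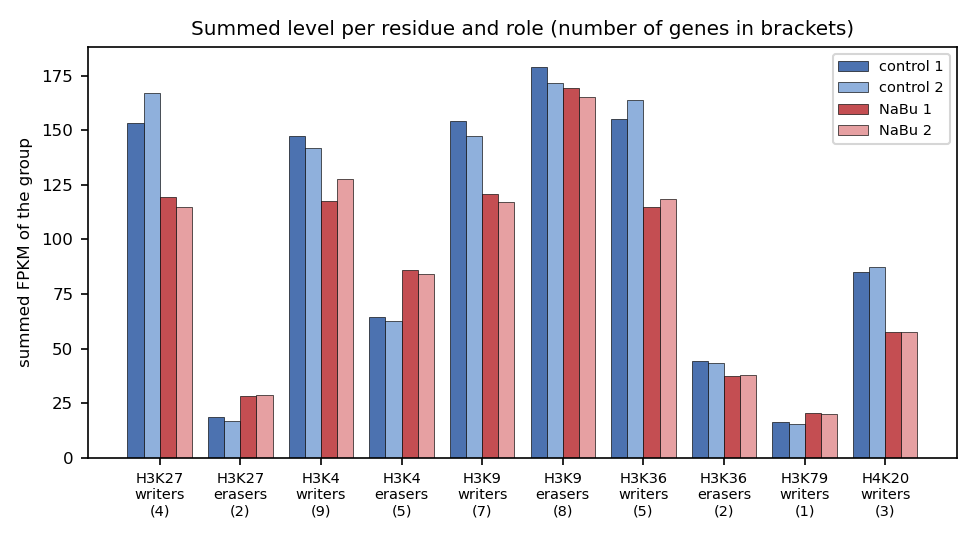
Summed FPKM of the genes of each residue and role in each library, with the number of genes in brackets; bars start at 0. H3K27 and H3K4 erasers and the H3K79 writer stand higher in both NaBu libraries. The writers of H3K27, H3K4, H3K9, H3K36 and H4K20 stand lower, as do the erasers of H3K9 and H3K36.

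Paralog balance was described for 13 pairs as the share of the first gene in their summed FPKM, without a test. *Ezh1* held 23.1% and 19.9% of the EZH pair in the controls and 36.3% and 37.0% in NaBu. *Whsc1* held 44.3% and 44.9% of its pair with *Whsc1l1* in the controls and 30.4% and 31.2% in NaBu. *Suv420h1* went from 30.4% and 34.9% of its pair to 20.5% and 20.8%. These 3 pairs and the *Kdm6a* and *Kdm6b* pair above had the widest gaps. By contrast, *Kdm1a* held between 85.8% and 86.5% of the LSD pair in all 4 libraries, and *Ehmt1* between 15.5% and 17.7% of the *Ehmt1* and *Ehmt2* pair.

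**Figure D4:**
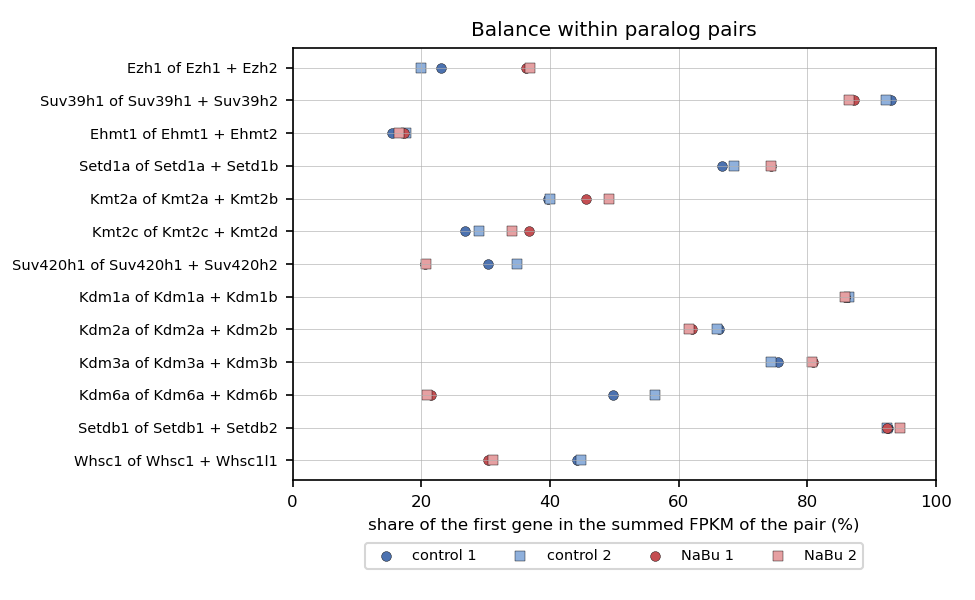
Share of the first gene in the summed FPKM of each of 13 paralog pairs, in percent, with 1 mark per library. The *Kdm6a* share is 49.8% and 56.3% in the controls and 21.6% and 20.9% in NaBu, whereas the marks of *Kdm1a* lie close together.

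Partner genes of the complexes were taken from lists of complex subunits and readers. Of 8 tested PRC2 accessory genes, 4 fell, 1 rose and 3 were not called (median log2 fold change -0.23), a called share of 62.5%, below the 68.6% of all tested genes. *Phf19*, a reader of H3K36 methylation that recruits PRC2, had 11.2 and 12.9 FPKM in control libraries and 2.6 and 2.97 in NaBu libraries and fell 4.61-fold. *Rbbp7*, a histone chaperone shared with other complexes, fell 2.22-fold and *Mtf2* 1.53-fold, while *Jarid2*, a substrate-like cofactor, rose 1.69-fold, from 20.8 and 19.6 to 36.1 and 36.4 FPKM. PRC1, the complex that ubiquitylates H2A, had 9 of 18 genes higher, 2 lower and 7 not called, a called share of 61.1%. *Rybp*, a subunit of its variant forms, rose 2.1-fold, *Cbx7* 1.61-fold and *Cbx8* 1.49-fold, and *Bmi1* fell 1.99-fold. Of the 14 subunits of the H3K4 writer complexes, 12 fell and 2 rose (median -0.38), where 34.1% of all tested genes were called lower. *Hcfc1* had 59.4 and 58.2 FPKM in control libraries and 19.2 and 21.2 in NaBu libraries and fell 3.11-fold. *Paxip1* and *Pagr1a*, both of the *Kmt2c* and *Kmt2d* complexes, fell 2.17-fold and 1.86-fold, and *Ash2l*, common to all of these complexes, 1.45-fold.

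Readers and partners on the silencing side also included falls. Of 15 tested H3K9 partners and readers, 8 fell, 3 rose and 4 were not called. The called share was 73.3%, near the 68.6% of all tested genes. *Cbx5* and *Cbx3*, encoding the heterochromatin proteins HP1 alpha and gamma, fell 2.29-fold and 2.23-fold. *Uhrf1*, which couples H3K9 methylation to DNA methylation, fell 2.22-fold, from an FPKM of 108 and 111 to 51.6 and 55.4, and *Zfp644*, a partner of G9a and GLP, fell 2.01-fold. LSD1 complex genes were even, with 4 of 12 higher, 4 lower and 4 not called, a called share of 66.7%. *Rcor2*, a corepressor paralog, rose 7.29-fold from 1.64 and 1.23 to 11.0 and 10.9 FPKM, and *Rcor1* rose 1.46-fold. *Zmym3* fell 1.53-fold, from 11.6 and 11.2 to 8.03 and 7.95 FPKM, and *Mta2*, of the NuRD complex, fell 1.47-fold. Of 10 *Dot1l* and NSD partners, 5 rose, 4 fell and 1 was not called, a called share of 90.0%. *Iws1*, which links SETD2 to elongating RNA polymerase, fell 2.08-fold, from 6.68 and 7.11 to 3.6 and 3.5 FPKM, and *Mllt6* fell 1.7-fold, while *Aff1* and *Mllt1* rose 1.32-fold and 1.31-fold. The cell division genes fell between 1.48-fold (*E2f1*) and 10.4-fold (*Cdc20*), with *Plk1* at 8.03-fold, *Ccna2* at 7.53-fold and *Tk1* at 7.12-fold. The median log2 fold change of the cell division genes was -2.11, against -0.90 for *Ezh2* and -1.52 for *Suv39h1*. Whether these falls are related was not tested.

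**Figure D5:**
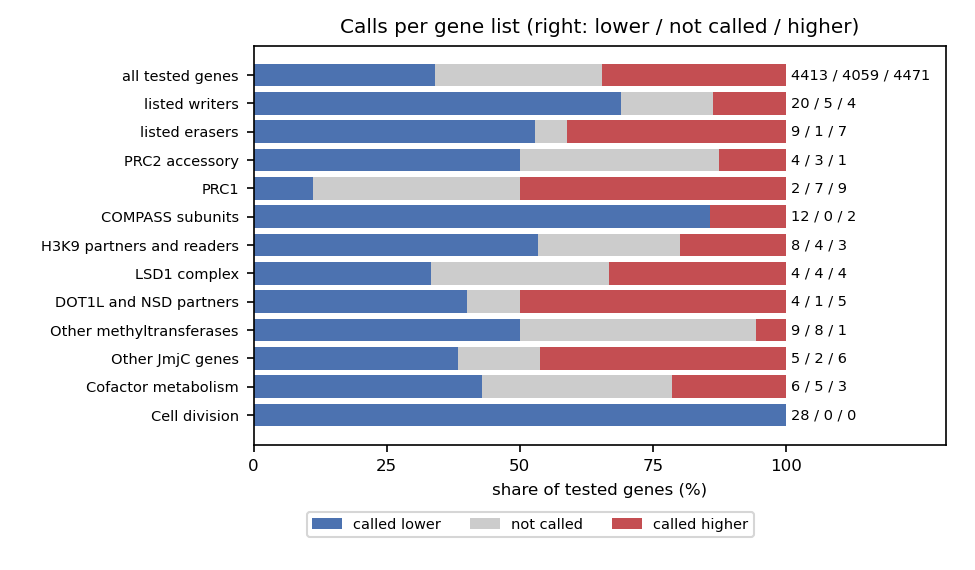
Share of tested genes called lower (blue), not called (grey) and called higher (red) in all tested genes, the listed writers and erasers and 10 lists of related genes, with the numbers at the right. COMPASS subunits are those of the H3K4 writer complexes. Writers (20 lower of 29) and COMPASS subunits (12 of 14) lean to lower calls, and PRC1 (9 of 18) to higher calls.

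Some values rest on shared sequence. By GENCODE exons, 4 of the 46 genes share at least 10% of their exon bases with another gene: *Setd1a* shares 51.8% with a predicted gene on the same strand, and *Smyd2* (30.0%), *Kdm3b* (24.6%) and *Suv39h1* (14.6%) share theirs with noncoding genes on the opposite strand. Next came *Kmt2e* (9.31% with *Srpk2*), *Kdm1b* (9.19% with *Dek*) and *Suv39h2* (8.1% with *Dclre1c*), all with protein-coding genes on the opposite strand. Strandedness was not given, so reads of a gene and its partner on the other strand cannot be told apart.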

How the data were processed

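The submitters' processing notes name Bowtie2, RSEM and mm10; the annotation release was not given. The authors' expected counts are estimates that need not be whole and were rounded before testing; per the file headers each gene also has an FPKM value, used here as deposited for levels. RSEM splits a read with several matching genes among them. A gene absent from a library's file was set to 0, and the deposited table of the whole series held the same FPKM values (largest difference 0.0).

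The test was edgeR 4.0.16 under R 4.3.3 (TMM, filterByExpr, quasi-likelihood F test, NaBu against control, no covariates), with Benjamini-Hochberg adjustment over 12943 genes. Each SE was derived from the F statistic (log2 fold change over root F). With 2 libraries a group an exact permutation cannot go below p = 0.333, so none was run. The test was checked on simulated counts in which few genes changed and both groups varied alike. In these data 68.6% of tested genes were called, a case that the check does not cover.

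Alternatives were scaling by library totals or by DESeq2's median of ratios, no filter, at least 5 CPM in 2 libraries, DESeq2 1.42.0, limma 3.58.1 on log2(FPKM + 1) for genes reaching FPKM 1 in 2 libraries, with a pseudocount of 0.1 and without the filter, glmTreat against 1.5-fold, a replicate block, and leaving out each library. Removal of the trend with transcript GC content (lowess span 0.3), with and without the block, was added after seeing the data. Members and lists were chosen with earlier results of these data known. All members are named, and of each list up to 4 called genes with the largest changes and a mean of at least 1 FPKM in the higher group; *E2f1* and marker genes were added after their values were seen. Gene positions are from RefSeq on GRCm38.p6.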

Additional observations from a re-analysis of the deposited data

How the results depend on the processing

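Under the 16 alternatives, 13 of the 46 genes kept their direction and their side of the threshold throughout, and 26 did so when the 1.5-fold null is left aside. The 13 were *Suv39h1*, *Suv420h1*, *Whsc1*, *Setd1b*, *Ezh2*, *Nsd1*, *Kdm6a*, *Phf2*, *Kdm6b*, *Kdm5b* and *Smyd3*, which were called each time, and *Setdb1* and *Setdb2*, which were not called each time, *Setdb2* being outside the fit at 5 CPM. Against the 1.5-fold null, 3779 of all genes were called, 2214 higher and 1565 lower, with 11 members (3 higher, 8 lower) and 54 genes of the related lists, against 115 in the main analysis. Leaving out a library gave between 7099 and 8850 calls over all genes (3617 to 4418 higher, 3479 to 4432 lower), 29 to 39 members called, 5 to 10 higher and 23 to 30 lower, and 95 to 118 genes of the lists. The signs of *Kmt2a* without NaBu 2 (-0.028, range without a library -0.028 to 0.19) and of *Kdm5a* without control 1 (-0.026, range -0.026 to 0.083) turned, and neither was called there. On library totals 34 members were called, 11 higher and 23 lower. DESeq2 called 34 members (8 higher, 26 lower), ending among others *Ezh1*, *Kdm1b* and *Kdm4c*. limma called 33 with either pseudocount and 29 without the filter, where *Kmt2b*, *Kdm4b* and *Suv420h2* also lost their calls. The replicate block gave 39 called members (11 higher, 28 lower) and 8853 calls over all genes; with it *Kdm2b* and *Kdm3a* lost their calls and *Kmt2d* was called lower. Same-numbered libraries did not deviate together (correlation -0.03), so the numbers were not taken to pair them. The cause of these changes was not tested. The members that lost a call without some library had changed 1.12-fold to 1.21-fold in the main analysis.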

Other observations

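Genes outside the 46 that carry related domains or supply the enzymes' cofactors were described by the same counts. Of 18 tested other methyltransferase genes, mostly of the SET and PRDM families, 9 fell, 1 rose and 8 were not called, a called share of 55.6% against 68.6% of all tested genes. The riser was *Prdm1*, encoding the repressor Blimp-1, with 7.88 and 6.81 FPKM in control libraries and 24.5 and 23.7 in NaBu libraries. *Smyd5* fell 2.4-fold, *Prdm10* 2.45-fold and *Mettl4*, which is not a SET protein, 2.09-fold. Of 13 other JmjC genes, 6 rose, 5 fell and 2 were not called, a called share of 84.6%. *Hspbap1*, a small JmjC protein, had the largest change, 3.51-fold higher, from 0.53 and 0.5 FPKM to 1.88 and 1.99. *Kdm7a*, an eraser of H3K9 and H3K27 methylation related to *Phf8*, had 2.88 and 2.99 FPKM in control libraries and 7.47 and 7.27 in NaBu libraries, a 2.35-fold rise, whereas *Kdm8* fell 2.63-fold and *Kdm4d*, a low-expressed relative of *Kdm4a*, 3.47-fold.

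Cofactor genes were divided, with 3 of 14 tested higher, 6 lower and 5 not called, a called share of 64.3%. *Idh2*, whose mitochondrial enzyme makes 2-oxoglutarate, had 13.2 and 13.3 FPKM in control libraries and 27.7 and 27.6 in NaBu libraries and rose 1.96-fold. *Mtap*, of the methionine salvage pathway, rose 1.72-fold, from 24.4 and 26.1 to 47.1 and 45.5. *Mtr*, encoding methionine synthase, fell 2.27-fold, from 8.0 and 8.45 to 3.69 and 4.07. *D2hgdh*, which clears D-2-hydroxyglutarate, fell 1.96-fold.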
